A study of Mus musculus with 468 samples.

Results

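The thermogenic programme of brown and beige fat was examined through 8 genes: Ucp1, Cidea, Cox8b, Cox7a1, Dio2, Elovl3, Ppargc1a and Prdm16. They were chosen by gene symbol from the 23180 genes in the tables, and all 8 were among the 18380 genes that had enough counts to be compared. RNA was sequenced from adipose tissue of Diversity Outbred (DO) mice, an outbred stock in which the genomes of several inbred founder strains are mixed, so that nearly every animal has its own genotype. Every mouse received the same high-fat, high-sugar (HFHS) diet with 45 percent fat, from a few weeks of age to harvest as an adult, and the study's methods name the gonadal fat pad, a white, visceral depot. Each mouse gave 1 library and all libraries form 1 group, with no lean or untreated mice, and an SD below is over mice. The labels give a mouse number and a library number but no sex, generation or batch.

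White adipocytes store triglyceride in a single large droplet, whereas brown adipocytes hold many small droplets and many mitochondria and burn fatty acids to make heat. Heat comes from uncoupling protein, the Ucp1 product, which lets protons back across the inner mitochondrial membrane without making ATP. The programme is switched on by noradrenaline through beta-adrenergic receptors and cAMP, and beige adipocytes are cells inside white depots that can turn on the same genes. Dio2 encodes the deiodinase that makes active thyroid hormone inside the cell, Elovl3 a fatty acid elongase, and Cidea a protein of the lipid droplet surface. Cox8b and Cox7a1 encode isoforms of 2 cytochrome c oxidase subunits that are found in heat-producing or contracting tissue. Ppargc1a is the coactivator that drives mitochondrial genes, and Prdm16 is a transcriptional regulator of brown and beige cell identity.

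Promoter sequences are shown for the 3 genes that held the cAMP response element core, since cAMP is the signal that turns the programme on, and for Cox7a1, a mitochondrial subunit gene whose promoter window held none of the capitalised motifs. RefSeq promoters on GRCm38.p6, from 250 bases before to 50 bases after the annotated start, matched 6 of the 8 genes, and Cidea and Elovl3 had no entry. Each run below is written 5′ to 3′ on the strand of the gene, and capitals mark TGACG or its reverse complement CGTCA (the core of the cAMP response element), AGGTCA (the core that nuclear receptors bind) and TATAAA (the TATA box). The windows are chr8:83290098-83290397 on the plus strand for Ucp1, chr12:90738989-90739288 on the minus strand for Dio2, chr5:51567676-51567975 on the minus strand for Ppargc1a and chr7:30183921-30184220 on the plus strand for Cox7a1.
Ucp1: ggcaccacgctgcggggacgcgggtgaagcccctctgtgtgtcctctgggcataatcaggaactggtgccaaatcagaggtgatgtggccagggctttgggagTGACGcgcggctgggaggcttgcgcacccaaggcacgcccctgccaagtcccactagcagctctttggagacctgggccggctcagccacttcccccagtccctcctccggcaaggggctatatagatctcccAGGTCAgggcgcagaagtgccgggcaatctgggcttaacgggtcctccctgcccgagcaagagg
Dio2: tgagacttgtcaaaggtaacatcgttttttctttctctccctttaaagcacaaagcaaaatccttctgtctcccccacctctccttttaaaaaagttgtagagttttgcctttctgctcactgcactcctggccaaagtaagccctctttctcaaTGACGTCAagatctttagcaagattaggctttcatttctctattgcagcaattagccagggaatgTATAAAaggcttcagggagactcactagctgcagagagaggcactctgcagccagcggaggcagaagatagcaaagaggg
Ppargc1a: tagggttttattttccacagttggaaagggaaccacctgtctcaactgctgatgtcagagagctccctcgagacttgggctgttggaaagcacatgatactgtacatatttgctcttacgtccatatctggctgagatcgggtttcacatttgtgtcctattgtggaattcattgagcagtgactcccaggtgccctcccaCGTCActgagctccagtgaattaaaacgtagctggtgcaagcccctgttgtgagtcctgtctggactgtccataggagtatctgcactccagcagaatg
Cox7a1: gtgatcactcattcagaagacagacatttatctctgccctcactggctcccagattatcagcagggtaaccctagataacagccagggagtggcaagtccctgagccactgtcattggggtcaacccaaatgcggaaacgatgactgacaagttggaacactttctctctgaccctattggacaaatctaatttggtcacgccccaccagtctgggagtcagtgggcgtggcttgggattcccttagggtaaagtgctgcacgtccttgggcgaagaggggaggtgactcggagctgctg

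In the Dio2 window the core formed the full palindrome TGACGTCA, 95 bases before the start, and a TATAAA lay 30 bases before the start. That window lies outside the Dio2 span given below, which ends at 90738438, so these distances are from another annotated start. The Ucp1 window held TGACG from position 83290201 of the chromosome and AGGTCA 14 bases before the start, and the Ppargc1a window held the core on the other strand, 49 bases before the start. Searched on both strands of 32851 promoters of the same length, TGACG was present in 20.8%, TGACGTCA, which contains TGACG, in 1.79%, AGGTCA in 16.3% and TATAAA in 13.6%. The motif TCAAGGTCA of estrogen-related receptors, which contains AGGTCA, was present in 0.423% of promoters and in none of the 6 matched. Of the other motifs searched, CCAAT (37.4% of promoters) was in the windows of Cox7a1 and Prdm16 and GGGCGG (35.7%) in that of Prdm16, and TATAAA was also in that of Cox8b. A match describes letters in a window and is not a measured binding site.

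The libraries held between 35.3 M and 137.8 M expected counts, with 82.04 M at the median. Levels are given as CPM, counts scaled to a common library total with TMM factors, which adjust the totals for a few very abundant genes, and comparisons between genes as CPM per kilobase of exon. Ddx3y, Eif2s3y, Kdm5d and Uty of the Y chromosome had 0 counts in 48.5% of libraries and counts in the other 51.5%, with no library in between (where present, their summed level was 136.6 to 294.9 CPM), and the 2 sets were described separately because the thermogenic genes differed between them. The adipose label was checked with fat cell markers: the summed level of Adipoq, Plin1, Lipe, Fabp4, Pnpla2, Retn and Cfd was between 6976 and 33043 CPM in every library. Of the libraries, 5 stood apart in ways chosen after their values were seen. DO405 and DO360 had 28.4% and 19.2% of their counts in the ribosomal gene CT010467.1, DO283 had 19.7% in the seminal vesicle gene Svs5, and DO153 and DO347 had no Y chromosome counts and also little Xist (3.66 and 6.02 CPM). Results that rest on pairs of genes are given with and without these 5.

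Ucp1 (chromosome 8, 83290352 to 83298452, plus strand) spanned the widest range of the 8 genes. In the libraries without Y chromosome counts its level was 0.216 CPM in the lowest, 448.2 CPM at the median and 4514 CPM in the highest (mean 643.4 ± 724, SD). In the libraries with Y chromosome counts it was 0.0573 CPM in the lowest, which is 4 counts, 3.02 CPM at the median and 85.8 CPM in the highest (mean 6.74 ± 10.8, SD). The ranges of the sets overlapped, but 74.01% of the libraries without Y chromosome counts lay above the highest library of the other set, and the ratio of the medians was 148.5. The set accounted for 63.03% of the variance of log2 CPM of Ucp1, and 42 of the 18380 genes had a larger share, against a median share of 5.33% over all genes. Over all libraries, 0.131% of genes had a larger SD of log2 CPM than Ucp1.

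Among the lipid droplet and respiratory genes, Cidea (chromosome 18, 67343604 to 67367785, plus strand) was at 1.02, 158.2 and 1150 CPM in the lowest, median and highest library without Y chromosome counts, and at 1.61, 12.03 and 85.5 CPM in those with them. Cox8b (chromosome 7, 140898945 to 140900446, minus strand) was at 3.33, 60.4 and 307.3 CPM in the first set and at 2.22, 8.74 and 42.2 CPM in the second. Cox7a1 (chromosome 7, 30184144 to 30186078, plus strand) was at 0.287, 22.4 and 160.6 CPM and at 0.550, 2.19 and 9.46 CPM. All 3 genes therefore overlapped between the sets in their low values, and 64.8%, 61.7% and 68.7% of libraries without Y chromosome counts, in that order, lay above every library with them. The set accounted for 47.7%, 54.5% and 55.1% of their variance.

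Dio2 (chromosome 12, 90724552 to 90738438, minus strand), which raises thyroid hormone action in the cell, was at 0.128 CPM in the lowest and 11.8 CPM in the median library without Y chromosome counts, and the highest was 29.5 times the median. It was at 0.0991, 1.15 and 15.4 CPM in the lowest, median and highest library with them. Elovl3 (chromosome 19, 46131897 to 46135694, plus strand), which elongates saturated fatty acids, was at 0.218, 19.97 and 305.2 CPM in the first set. In the second set it was at 1.05 CPM at the median and 25.6 CPM in the highest library, and 3 libraries had 0 counts, which allows a level of up to 0.0220, 0.0308 and 0.0373 CPM in them at 3 counts. The overlap was wider than for Ucp1: 40.97% of libraries without Y chromosome counts for Dio2 and 44.9% for Elovl3 were above the highest library with them. The set accounted for 44.1% of the variance of Dio2 and 44.5% of that of Elovl3.

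The regulators differed less. Ppargc1a (chromosome 5, 51454250 to 51567726, minus strand) was at 0.854, 12.8 and 127.9 CPM in the lowest, median and highest library without Y chromosome counts and at 1.08, 4.58 and 19.3 CPM in those with them. Prdm16 (chromosome 4, 154316125 to 154636873, minus strand) was at 2.57, 11.9 and 31.1 CPM and at 2.95, 8.91 and 30.01 CPM. The ranges of Prdm16 overlapped almost fully, with 1 library above the highest of the other set, and the set accounted for 7.96% of its variance against 29.9% for Ppargc1a. The ratio of the medians was 2.79 for Ppargc1a and 1.34 for Prdm16, and 10.2 for Dio2 and 18.98 for Elovl3. The labels do not name these sets, though their sizes equal the study's numbers of females and males. The differences of level between them were not tested. The spans of Cidea, Dio2, Elovl3, Ppargc1a and Prdm16 overlap those of other annotated genes, in part on the opposite strand (B430212C06Rik, Gm26512 and Pitx3 for the first 3). The spans include introns, and overlap of exons was not examined. Any use of strand in counting is not given in the sources used here, so whether such pairs share reads was not tested. In whole tissue, fewer cells of a type and less RNA per cell cannot be told apart.

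**Figure D1:**
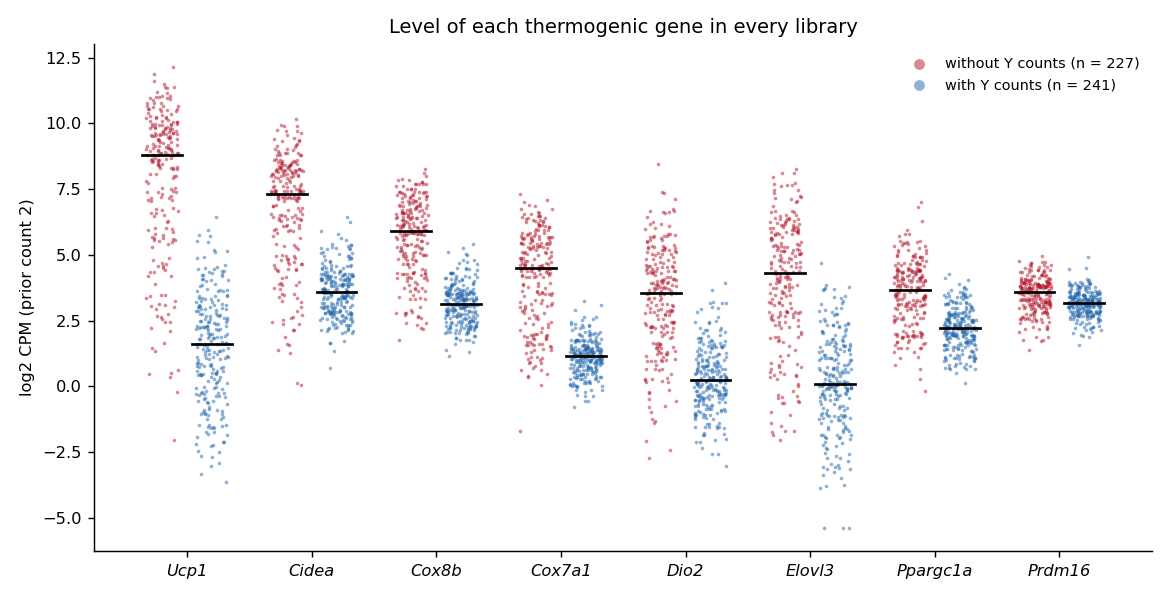
Log2 CPM (vertical axis, prior count 2) of the 8 thermogenic genes, 1 point per library, in the libraries without (red) and with (blue) Y chromosome counts, with black bars at the medians. Ucp1 shows the widest gap between the sets (medians 448.2 and 3.02 CPM) and Prdm16 the narrowest (11.9 and 8.91 CPM).

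Compared per length of exon, Ucp1 had the highest median of the 8 genes in libraries without Y chromosome counts, at 273.95 CPM per kilobase, followed by Cox8b at 167.7, Cidea at 141.9, Cox7a1 at 41.9, Elovl3 at 10.1, Dio2 at 2.03, Ppargc1a at 1.94 and Prdm16 at 1.28. The middle 50% of libraries overlapped for every pair of neighbours in that order, and Dio2 was above Ppargc1a in 50.2% of libraries. With Y chromosome counts the order per length opened with Cox8b at 24.3 CPM per kilobase, Cidea at 10.8 and Cox7a1 at 4.09, and Ucp1 came after them at 1.85. Prdm16 at 0.956, Ppargc1a at 0.695, Elovl3 at 0.533 and Dio2 at 0.198 CPM per kilobase followed. Cox8b and Cidea, and Cidea and Cox7a1, were apart beyond the middle 50% there, and the other neighbours were not.

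The isoform genes were read against their widely expressed relatives. Of the summed level per length of Cox8b and Cox8a, the form found in most tissues, Cox8b made up 28.9% at the median (2.41% to 52.6%) without Y chromosome counts and 7.63% (2.17% to 24.7%) with them. Cox7a1 made up 25.6% (0.629% to 50.9%) of its sum with Cox7a2 in the first set and 4.45% (1.11% to 17.1%) in the second. Against Ucp2, an uncoupling protein of many cell types, Ucp1 made up 87.6% and 2.55% of the summed level per length at the median. Cidec, the lipid droplet relative that white adipocytes use, was the more abundant gene at the median of both sets, where Cidea made up 11.4% (0.0847% to 53.6%) and 0.872% (0.102% to 8.52%) of their sum. Shares differ between libraries when either gene does, and Ucp2 itself had a lower median in the first set (233.96 CPM) than in the second (410.98 CPM).

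Over all libraries most of the genes had 2 humps in their distribution of log2 CPM. A gene was said to have 2 humps when 2 normal components described it better than 1 (a fall of BIC, a criterion that penalises extra parameters, by over 10), the smaller component held at least 10% of libraries and the fitted curve had 2 maxima. This held for Ucp1, Cidea, Cox8b, Cox7a1, Dio2 and Elovl3, 6 of the 8, and for 7.22% of all genes. Ppargc1a and Prdm16 had a single maximum. For Ucp1 the fitted components were centred at 4.67 and 721 CPM, with the low point of the curve at 119.4 CPM. For Cox7a1, which had the largest fall of BIC (220.8), they were centred at 2.32 and 31.6 CPM. The humps lay mainly along the sets: 70.5% of the libraries without and 0% of those with Y chromosome counts were above the low point of Ucp1, and the shares were 70.9% and 0.830% for Cidea, 71.8% and 2.07% for Cox8b, 70.5% and 0.415% for Cox7a1, 60.4% and 3.73% for Dio2 and 57.3% and 0.830% for Elovl3.

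Set membership did not account for all of the low libraries. Without Y chromosome counts, 67 libraries lay below the low point of Ucp1. Within that set alone Ucp1, Cidea and Cox7a1 still had 2 humps, 3 of 8 genes against 4.04% of all genes. Within the libraries with Y chromosome counts none of the 8 did, where 6.28% of all genes were called, and none did after the mean of each set was subtracted, where 4.83% were. The 6 genes with 2 humps sorted most libraries alike, though not all. Of all libraries, 24.4% were above the low point of all 6 genes, all of them without Y chromosome counts. Another 58.8% were above none, which was 22.03% of those without and 93.4% of those with Y chromosome counts. The remaining libraries were above some of the 6 and below others, 27 of them above 5.

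**Figure D2:**
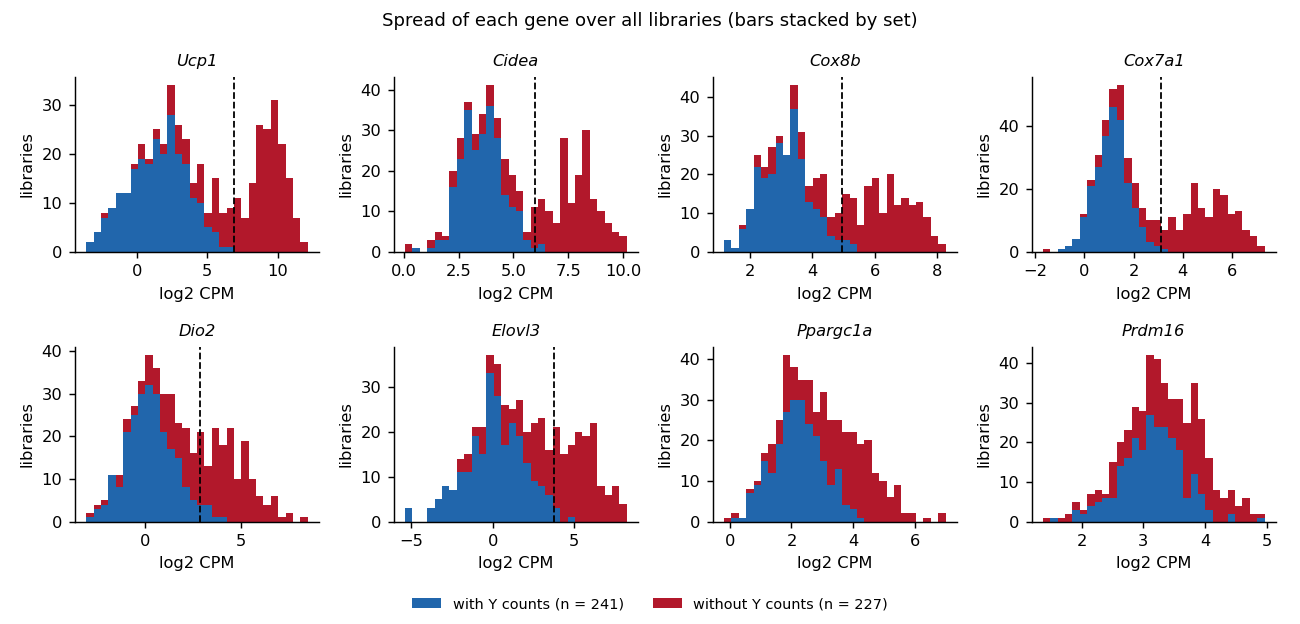
Number of libraries (vertical axis) by log2 CPM (horizontal axis) for each of the 8 genes, stacked as libraries with (blue) and without (red) Y chromosome counts, with a dashed line at the low point between 2 humps where they were called. For Ucp1 all 160 libraries above the line are red, and 67 red libraries lie below it. Ppargc1a and Prdm16 have no line.

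The 8 genes rose and fell together between mice. In libraries without Y chromosome counts, Pearson's r of log2 CPM was positive and called in all 28 pairs of the genes, from 0.542 for Dio2 and Prdm16 to 0.967 for Cox8b and Cox7a1, with a median of 0.827 (permutation test with 100000 resamples, Benjamini-Hochberg adjusted p at most 2.37e-05, adjusted over 147032 pairs of a member and any gene). Of all those pairs, 31% were called positive in this set. With Y chromosome counts 22 of the 28 pairs were called positive, against 17.8% of all pairs, from r of −0.0775 for Elovl3 and Prdm16 to 0.742 for Cidea and Cox8b, with a median of 0.249. The 6 pairs not called there were Cidea with Dio2 (r 0.135) and with Elovl3 (0.0790), Cox8b with Elovl3 (0.103), Ppargc1a with Dio2 (0.0640) and with Elovl3 (−0.0701), and Elovl3 with Prdm16. With the mean of each set subtracted and all libraries used, all 28 pairs were positive (r 0.364 to 0.905, median 0.637, permutation adjusted p 2.64e-05, against 29.7% of all pairs). The difference of r between the sets was not tested.

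Ucp1 followed Cidea with r of 0.966 without and 0.459 with Y chromosome counts, Cox8b with 0.925 and 0.460, Cox7a1 with 0.952 and 0.663, Dio2 with 0.785 and 0.434, Elovl3 with 0.861 and 0.182, Ppargc1a with 0.843 and 0.207, and Prdm16 with 0.714 and 0.255. All of these were called in both sets. The respiratory isoforms and Cidea were thus the tightest companions of Ucp1 in the first set, and Cox7a1 alone had r above 0.5 with it in the second. Spearman's rho over all libraries, on ranks inside the sets, was between 0.323 and 0.885 and was called in all 28 pairs. Leaving out the 2 libraries farthest from the median of the first gene of a pair gave r between 0.372 and 0.903.

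The pair correlations were recomputed inside blocks of 93 or 94 libraries with consecutive numbers, in place of batches the labels do not name. All 28 pairs were positive in each of 5 blocks of mouse numbers (r 0.235 to 0.931) and in each of 5 blocks of library numbers (0.211 to 0.933). Without the 5 libraries that stood apart, 28 pairs were called without and 22 with Y chromosome counts. Inside the first set, libraries above the low point of Ucp1 in that set (70.9% of them) and below it (66 libraries) were also read apart. Above it, r with Ucp1 was 0.938 for Cox7a1, 0.911 for Cidea, 0.908 for Cox8b, 0.814 for Elovl3, 0.764 for Ppargc1a, 0.679 for Dio2 and 0.629 for Prdm16. Below it, r was 0.776, 0.855, 0.637, 0.410, 0.433, 0.281 and 0.478 in the same order, so the genes also followed Ucp1 on each side of the low point. These values describe ranges chosen on Ucp1 itself and were not tested.

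**Figure D3:**
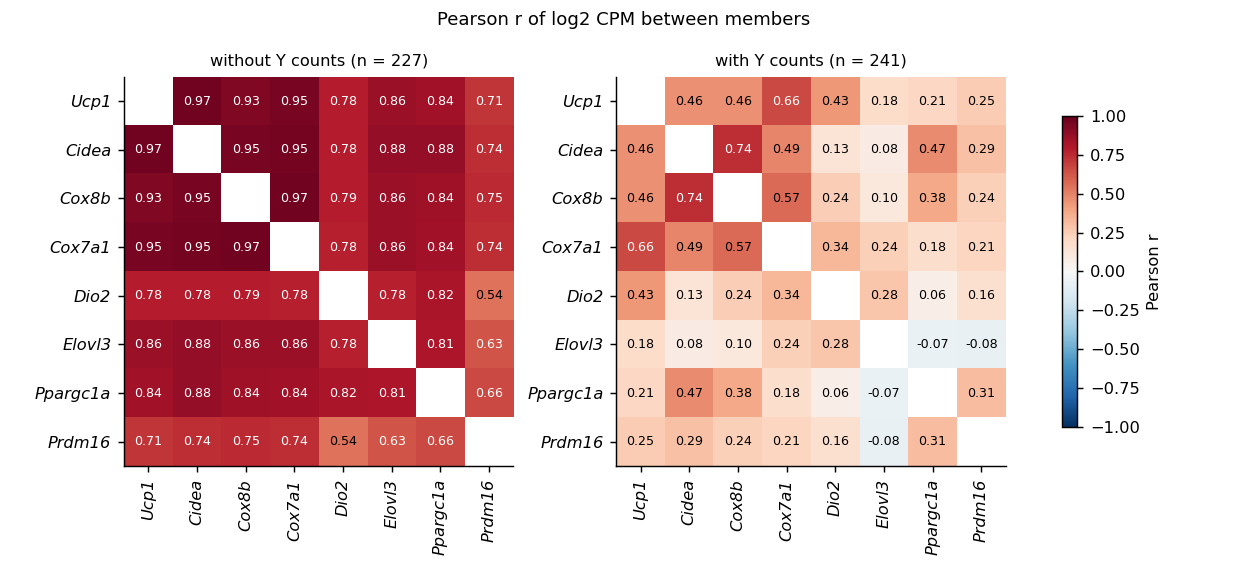
Pearson's r of log2 CPM between the 8 genes (colour scale from −1 to 1), in the libraries without (left) and with (right) Y chromosome counts. All 28 pairs on the left are positive, from 0.542 to 0.967, and the pairs on the right run from −0.0775 to 0.742, with the lowest values in the row of Elovl3.

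The slope of a gene on Ucp1 gives its fitted change per doubling of Ucp1, and not how closely it followed. Without Y chromosome counts, each doubling of Ucp1 went with a 1.66-fold rise of Cidea (slope 0.73 ± 0.013 on the log2 scale, SE over libraries) and of Elovl3 (0.73 ± 0.029), a 1.53-fold rise of Cox7a1, 1.48-fold of Dio2, 1.39-fold of Cox8b, 1.30-fold of Ppargc1a and 1.13-fold of Prdm16 (0.17 ± 0.011). With Y chromosome counts the slopes were lower for all 7 genes: 0.21 ± 0.027 for Cidea, 0.16 ± 0.057 for Elovl3, 0.26 ± 0.035 for Dio2, 0.22 ± 0.016 for Cox7a1, 0.17 ± 0.022 for Cox8b, 0.080 ± 0.024 for Ppargc1a and 0.061 ± 0.015 for Prdm16 (SE). The range of Ucp1 itself differs between the sets, and the difference of slopes was not tested.

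Single mice at the ends of the range did not carry all 8 genes alike. Mouse DO330 had the highest Ucp1 (4514 CPM) and Dio2 of all libraries and ranked 3 for Cidea, Cox8b, Elovl3, Ppargc1a and Prdm16 and 4 for Cox7a1. Mouse DO237 had the highest Cidea (1150 CPM), Cox8b (307.3 CPM) and Cox7a1 (160.6 CPM) but ranked 78 for Dio2 (20.02 CPM). Mouse DO478 had the highest Ppargc1a (127.9 CPM) and Prdm16 (31.1 CPM) and ranked 2 for both respiratory isoforms. Elovl3 was highest in mouse DO158 (305.2 CPM), which ranked 15 for Ucp1 (2011 CPM). These 4 mice had no Y chromosome counts, and mouse DO318, which had them, ranked 2 for Prdm16.

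Mouse DO349, also without Y chromosome counts, had the lowest Cox7a1 of all libraries (0.287 CPM, 28 counts) and little Ucp1 (1.25 CPM), but its Ppargc1a was at 39.8 CPM, rank 17 of all libraries, and its Elovl3 at 16.5 CPM. On the log2 scale these lay 4.57 above the line of Ppargc1a on Ucp1 and 5.61 above that of Elovl3, the largest distances of that set for these genes, where the residual SD was 0.67 and 1.22. With DO349 left out, 28 pairs stayed called without and 22 with Y chromosome counts. Among libraries with Y chromosome counts, mouse DO318 had the highest Ucp1 (85.8 CPM), Cox7a1 (9.46 CPM) and Prdm16 (30.01 CPM) but only 0.693 CPM of Elovl3. Mouse DO313 had the lowest Ucp1 of all (0.0573 CPM) with 14.9 CPM of Cidea, above the median of its set.

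**Figure D4:**
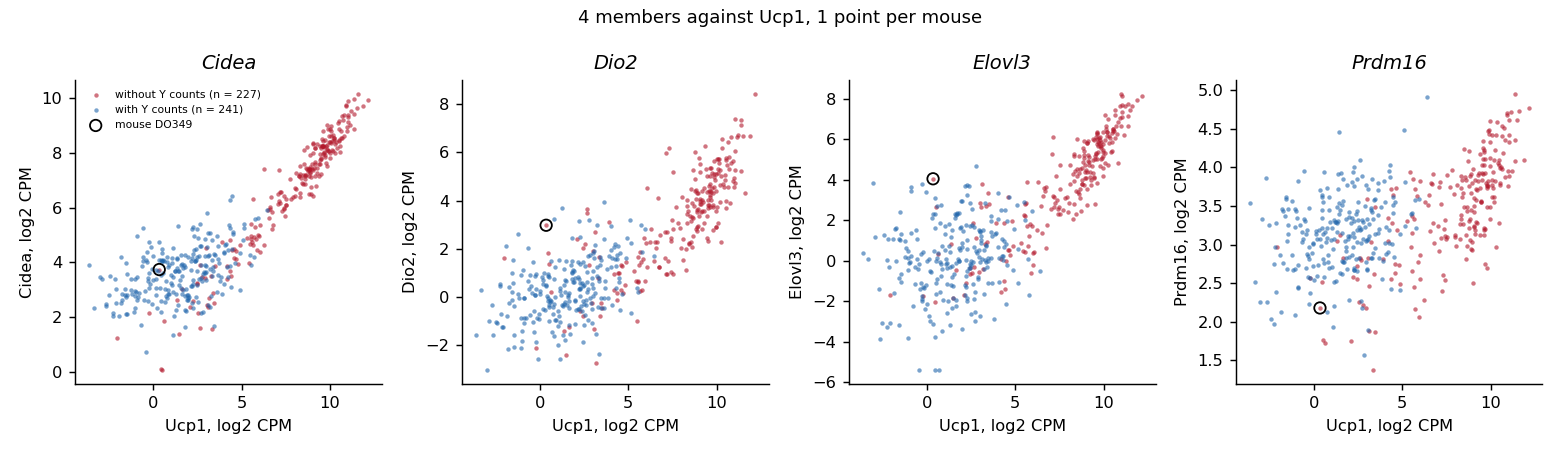
Log2 CPM of Cidea, Dio2, Elovl3 and Prdm16 (vertical axes) against log2 CPM of Ucp1 (horizontal axes), 1 point per mouse, red without and blue with Y chromosome counts, with mouse DO349 circled. Red points rise steeply with Ucp1 (slope 0.73 for Cidea and 0.17 for Prdm16), blue points less so (0.21 and 0.061), and DO349 stands above the red points of Elovl3 that have as little Ucp1.

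Many genes outside the programme followed these 8 as well, which sets how the counts below are read. With the mean of each set subtracted, 27.5% of the other genes were called positive with Ucp1 and 36.7% negative (permutation test, adjusted as above). These were 30.9% and 38.3% without and 10.1% and 11.3% with Y chromosome counts. The split depended on the scaling: with total counts in place of TMM factors it was 10.2% and 66.1% over all libraries, 11.4% and 69.6% without and 9.83% and 10.1% with Y chromosome counts. The median r of all genes with Ucp1 moved from −0.0358 to −0.170 over all libraries with that change. With DESeq2 size factors in place of TMM the split was 27.7% and 36.4%.

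The genes closest to the 8 were those of fatty acid oxidation in mitochondria. Among the 9500 genes whose mean level reached 10 CPM, Cpt1b, the muscle-type enzyme that loads fatty acids for entry into mitochondria, had the highest mean r with the 8 genes (0.790, from 0.603 with Prdm16 to 0.931 with Cox7a1). Its level was 125.5 CPM at the median without and 16.2 CPM with Y chromosome counts, and its r with Ucp1 was 0.964 and 0.735 in the sets. Hadha and Hadhb, the subunits of the trifunctional protein of beta-oxidation, Acaa2, its last thiolase, Acadvl, its first dehydrogenase for very long chains, and Etfdh, which passes the electrons on, followed with mean r between 0.764 and 0.770. Ppara, the receptor that turns on fatty acid oxidation (0.763), Letmd1, a protein of the inner mitochondrial membrane (0.762), and Sucla2, an enzyme of the citric acid cycle (0.755), came next. All of these genes were called positive with each of the 8 over all libraries with set means subtracted. In total, 3274 of the 18372 genes outside the 8 were called positive with all 8 in that test, and 3283 negative. Inside the libraries with Y chromosome counts alone, 17 genes were called positive with all 8 and 8 negative. The 5 lowest mean r belonged to Mcrip1 (−0.551), Kirrel (−0.526), Kctd10 (−0.523, an adaptor of a ubiquitin ligase), Lix1l (−0.523) and Gnai2 (−0.521, the inhibitory G protein subunit that lowers cAMP), each called negative with all 8.

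Several members shared their nearest genes, ranked here among genes outside the 8. Another member could be nearer still, as Cidea was to Cox8b (r 0.905). Cpt1b was among the 3 nearest of Ucp1 (r 0.883), Cidea (0.905), Cox8b (0.895), Cox7a1 (0.931), Dio2 (0.717) and Prdm16 (0.603). Ucp1 was also nearest to Acaa2 (0.808) and the fatty acid carrier Fabp3 (0.801), and Cidea to Acadvl (0.906). Cox8b was also nearest to Acadvl (0.8998) and Hadhb (0.899), and Cox7a1 to Acaa2 (0.930) and Letmd1 (0.912). Dio2 stood next to Rdh13 (0.691), a retinol dehydrogenase of mitochondria, and Chkb (0.686), the choline kinase gene that neighbours Cpt1b. Elovl3 was nearest to Pfkl (0.715), a phosphofructokinase of glycolysis, Hadha (0.704) and the phosphatase gene Phospho1 (0.703). Ppargc1a was nearest to Ppara (0.846), Acadvl (0.840) and Sdha (0.835), the flavoprotein of complex II, and Prdm16 to Ppara (0.605), Cpt1b and Acaa2 (0.601). All of these were called in both sets (permutation adjusted p at most 0.0233), and with Y chromosome counts their r ran from 0.173 for Prdm16 and Acaa2 to 0.735 for Ucp1 and Cpt1b.

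Regulators of the programme mostly followed Ucp1 in libraries without Y chromosome counts. Of 13 transcription factors and coactivators, 12 were called positive without Y chromosome counts (median r 0.622, against −0.0460 for all genes), and 5 positive and 1 negative with them (median 0.119, against −0.0128). Ppara (r 0.934 and 0.433), Ppargc1b, the relative of Ppargc1a (0.8999 and 0.421), Esrrg (0.811 and 0.243), Esrra, a receptor that Ppargc1a coactivates (0.783 and 0.443), and Rxrg (0.622 and 0.206) were called in both sets. Tfam, which maintains mitochondrial DNA (0.736 and 0.119), Ebf2 (0.645 and 0.149), Pparg, the master factor of all adipocytes (0.498 and 0.0628), and Irf4 (0.393 and −0.0560) were called in the first set only, and their difference between sets was not tested. The thyroid hormone receptor Thra had r of 0.230 in the first set and −0.169 in the second, called in both. Zfp516 was called in neither set (−0.0328 and −0.0358). Without TMM factors Klf11, Ehmt1 and Thra turned to −0.0362, −0.321 and −0.225 in the first set, from 0.390, 0.402 and 0.230, and the list then gave 9 genes called positive and 3 negative, Klf11 not being called (permutation adjusted p 0.619).

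The signalling path from the adrenergic receptor to cAMP gave 7 of 8 genes called positive without Y chromosome counts (median r 0.579), and 2 positive and 1 negative with them (median 0.101). Adcy3, an adenylyl cyclase (0.609 and 0.348), and Prkaca, the catalytic subunit of protein kinase A (0.632 and 0.294), were positive in both sets. The receptor genes were Adrb1 (0.681 and 0.122) and Adrb3, the main beta receptor of rodent adipocytes, which was positive in the first set (0.494) and negative in the second (−0.184). Adrb3 was called in both sets and was at 529.4 and 482.9 CPM at the median, and without the adipocyte score its r over all libraries was −0.0247, against 0.1005 with it. Creb1, whose product binds TGACGTCA, was called in neither set (0.0900 and −0.0467). Mapk14 turned from 0.378 to −0.228 in the first set without TMM factors.

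Other genes known as enriched in brown fat mostly followed Ucp1 in libraries without Y chromosome counts. Of 21 listed, 19 were in the tables, and Lhx8 and Cox6a2 had too few counts to be tested. Of the 17 tested, 16 were called positive and 1 negative without Y chromosome counts (median r 0.829), and 9 positive with them (median 0.209). The highest were Cpt1b, Fabp3 (0.940 and 0.504), Acot11, an acyl-CoA thioesterase (0.927 and 0.0523), Letmd1 (0.914 and 0.376) and Otop1, a proton channel (0.907 and 0.575). Fabp3 was at 47.6 CPM at the median in the first set and 1.14 CPM in the second. Plin5, which ties lipid droplets to mitochondria, had r of 0.829 and 0.449, and Slc25a20, the carnitine carrier, 0.859 and 0.289. The nucleoside transporter Slc29a1 was called negative (−0.330 and 0.0382, the latter not called). Genes proposed as markers of beige rather than brown cells did not follow: of Tnfrsf9, Tmem26, Cited1, Tbx1 and Car4, 0 of 5 were called positive in either set (permutation test, with 0 and 1 at an unadjusted p under 0.05), and Tmem26 was called negative in the first (−0.187). Its r was 0.148 in the second, where it was called positive without the 5 libraries that stood apart. Tnfrsf9, Cited1 and Tbx1 had medians below 0.5 CPM, and whether their low level bears on the missing calls was not tested. Car4 and Tmem26 had higher medians, 47.3 and 1.99 CPM over all libraries. Of the factors that brown fat secretes, Nrg4 had r of 0.663 and −0.0286 and Fgf21 0.268 and 0.167 (2 of 2 called without and 1 of 2 with Y chromosome counts), and Bmp8b had too few counts.

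Listed genes of the respiratory chain mostly followed Ucp1. All 10 of those of complexes I, II, III and V were called positive without Y chromosome counts (r 0.822 to 0.872, median 0.864) and 8 with them (median 0.243). Sdha, for example, was at 742 CPM at the median in the first set and 354.2 CPM in the second, with r of 0.872 and 0.209. Of 8 cytochrome oxidase subunits found in most cells, 8 and 7 were called positive (median r 0.815 and 0.205), with Cox5a highest at 0.848 and 0.405. Cox7a1 (0.952 and 0.663) and Cox8b (0.925 and 0.460) lay above all 8 of these subunits in both sets. The widely expressed relatives Cox8a (0.769 and 0.0384) and Cox7a2 (0.762 and 0.129) lay below Cox8b and Cox7a1.

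Relatives of the members split by family. Of 16 tested, 8 were called positive and 4 negative without Y chromosome counts, and 2 positive and 1 negative with them (median r 0.177 and 0.0493), or 1 and 1 without the 5 libraries that stood apart. Ucp3, a further uncoupling protein of muscle and brown fat, was positive in the first set (0.771), whereas Ucp2 (−0.496) and the droplet protein gene Cidec (−0.293) were negative there. Among the elongases, Elovl6 (0.626), Elovl5 (0.453) and Elovl4 (0.377) were positive, Elovl1 (−0.6002) was negative, and Elovl2 and Elovl7 were not called. Pprc1, a relative of Ppargc1a, was negative (−0.352), and Mecom, a relative of Prdm16, was not called (−0.0881). Dio3 was not called (−0.136) and Dio1 had too few counts.

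Markers of other cell types moved with the 8 genes, in opposite directions in the sets for some of them. Macrophage markers were all 8 called negative with Ucp1 without Y chromosome counts (median r −0.565) and 4 were called positive with them (median 0.157), or 6 without the 5 libraries that stood apart. The summed macrophage level was 255.6 to 2313 CPM in the first set and 239.1 to 4850 CPM in the second, and Itgax, for example, had medians of 3.26 and 31.3 CPM. Against that sum r was −0.651 for Ucp1, −0.710 for Ppargc1a and −0.697 for Cidea in the first set, where all 8 genes were negative. In the second set it was 0.155, −0.582 and −0.389 in that order. Cox8b (−0.245) and Prdm16 (−0.137) were negative there too, and Cox7a1 (0.0539), Dio2 (0.382) and Elovl3 (0.230) were positive. Adipocyte markers were 6 of 7 called positive in the first set (median r 0.439) and 3 of 7 negative in the second (median −0.0777). The summed adipocyte level had r of 0.482 with Ucp1 and 0.540 with Ppargc1a in the first set and −0.0916 and 0.479 in the second. Without TMM factors Fabp4 and Retn had r of −0.142 and −0.0760 with Ucp1 in the first set, against 0.341 and 0.161, and the adipocyte markers then gave 3 positive and 2 negative calls. After the adipocyte score was removed by regression, all 28 pairs of the 8 genes stayed positive in the first set and 25 were called in the second.

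Skeletal muscle also expresses Cox7a1, Cox8b, Cpt1b and Fabp3, so its markers were read beside them. The summed muscle level was 9.77 to 9085 CPM without and 19.9 to 398.6 CPM with Y chromosome counts, and its r with the 8 genes was between 0.00584 and 0.0601 in the first set and between −0.189 and 0.101 in the second. Of 11 muscle markers tested, 5 were positive and 1 negative with Ucp1 in the first set, Myl1 being highest (0.479), and 1 was negative in the second. Myh4 and Pvalb had too few counts to be tested. Without the tenth of libraries with the most muscle RNA, 28 and 21 pairs of the 8 genes were called positive. Mesothelial markers were called negative with Ucp1 in 4 of 5 and 5 of 5 (median r −0.313 and −0.217). Liver markers were in 0 of 5, also at an unadjusted p, and 4 of 5 (−0.0276 and −0.160). Of 9 markers listed for mammary epithelium, Krt5, Csn3, Csn2 and Wap were not in the tables. The other 5, the epithelial genes Krt8, Krt18, Krt14, Krt7 and Epcam, were called negative in 5 and 2 (−0.282 and −0.145). With Y chromosome counts their sum had r of 0.222 with Ppargc1a and 0.293 with Prdm16, and below 0 with the rest of the 8. The summed levels were 38.3 to 618.6 CPM for mesothelium, 4.86 to 488.6 CPM for these epithelial markers and 0.931 to 6014 CPM for liver. No epididymis marker of 4 was in the tables. With Y chromosome counts the summed liver level had r of −0.210 with Ucp1 and 0.338 with Elovl3, against −0.0292 with Elovl3 in the other set. Of the 4 Y chromosome genes 0 were called with Ucp1 in the set that has them, and 1 passed at an unadjusted p under 0.05 (permutation test). The part of these cell types in the correlations of the 8 genes was not tested beyond the adjusted values given.

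**Figure D5:**
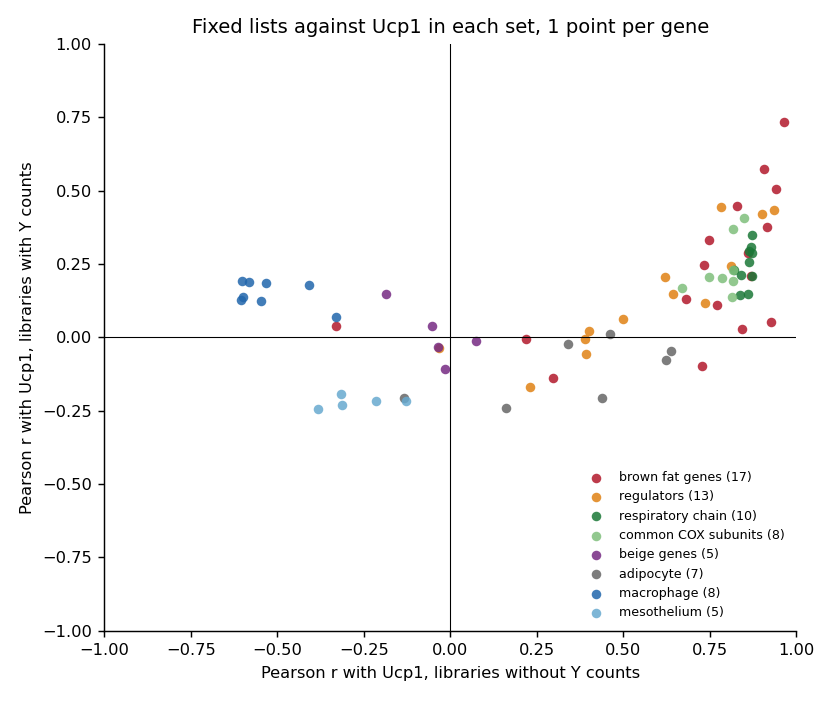
Pearson's r with Ucp1 of the tested genes of 8 lists, 1 point per gene, in libraries without (horizontal axis) and with (vertical axis) Y chromosome counts, with the number of genes in brackets. Brown fat and respiratory chain genes lie to the right (medians 0.829 and 0.864) and above 0 for the most part, beige genes near the centre (median −0.0370), macrophage genes to the left (median −0.565) and above 0 (0.157), and mesothelial genes to the left and below 0.

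The 2 numbers in the labels were read as the only record of order. Mouse number was not independent of the set, since the sets came in runs of mouse numbers. For example, mice DO021 to DO070 had no Y chromosome counts and mice DO071 to DO120 had them. For such mice a difference between the sets is also one between runs of numbers. Per 100 mouse numbers, Ppargc1a fell by 0.12 ± 0.039 (SE, log2) and Dio2 fell by 0.17 ± 0.068, and Prdm16 rose by 0.048 ± 0.019 (edgeR quasi-likelihood test, Benjamini-Hochberg adjusted p 0.0195, 0.0480 and 0.0470). Of all genes, 11.7% rose and 12.1% fell with mouse number, so 3 of 8 was 1 rising and 2 falling against that background. With the set of libraries as a term in the model, Prdm16 alone was called, at 0.074 ± 0.018 per 100 mouse numbers (adjusted p 0.00128, where 5.02% of all genes rose), and the slope of Ppargc1a was −0.035 ± 0.031 and that of Dio2 −0.057 ± 0.048. Library number gave 0 of 8 genes called, against 0.267% of all genes. At an unadjusted p under 0.05, 5 of the 8 passed for library number, against 1667 of all 18380 genes. DESeq2 called 1 of the 8 (Dio2), against 90 of all genes, and limma called 0 of all genes.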

How the data were processed

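Adipose RNA of 468 mice, 1 library each, was analysed, 227 libraries without and 241 with Y chromosome counts. Per the study's methods, a spike-in mix was added, polyadenylated RNA was made into libraries with a KAPA mRNA HyperPrep kit, and paired reads from a NovaSeq instrument were aligned as single ends to a transcriptome joining the founder strains and apportioned by expectation maximization (EMASE in GBRS). The first table the authors deposited gives these expected counts for each gene, and 66.8% of its values were whole to a tolerance of 1e-06. The other deposited table carries values on a log2 scale, made by the authors with the variance stabilizing step of DESeq2. The gene table the authors deposited gives positions, and the submitters' processing notes name GRCm38 and DESeq2. No aligner version is given. Expectation maximization divides reads shared by near-identical genes, which makes relatives such as the Y chromosome genes less certain. No sample column was left unused.

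Genes with at least 10 counts in 50% of libraries were kept. CPM used unrounded counts and TMM factors (0.578 to 1.36), and log2 CPM a prior count of 2. Total counts of 35.3 M to 137.8 M make 1 count worth little at the levels of the members, and intervals for counting error do not cover differences between mice, of which each gave 1 library. The labels form 1 group, so libraries were also read in 2 sets by Y chromosome counts. Pearson's r was tested by two-sided permutation inside the sets (100000 resamples, smallest p 1e-05, Benjamini-Hochberg over all pairs of a member and a gene). Rounded counts entered the quasi-likelihood fit of edgeR 4.0.16 on mouse and library number (R 4.3.3). DESeq2 1.42.0 and limma 3.58.1 were alternatives, beside other scalings, the deposited log2 values, filters, covariates and libraries left out. The steps for correlations, slopes and humps were tested on simulated data. Genes named are the members, the listed genes, the 3 nearest of each member and the 10 highest and 5 lowest mean r, at a mean of at least 10 CPM, and mice are those highest or lowest for a member. The members and lists were chosen with earlier results of these data known. Lists cover regulators, adrenergic signalling, brown-enriched, beige-enriched and secreted genes, relatives, common cytochrome oxidase subunits, the respiratory chain, adipocytes, macrophages, skeletal muscle, mammary epithelium, liver, epididymis, mesothelium and the Y chromosome. A few of the named genes and 1 further list are not reported here.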

Additional observations from a re-analysis of the deposited data

How the results depend on the processing

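All 28 pairs of the 8 genes stayed positive and called over all libraries and in libraries without Y chromosome counts under every alternative run (scaling, deposited values, prior count, filter, covariates removed, libraries left out), and 21 to 25 were called in libraries with Y chromosome counts, where 22 were in the main test. Total counts without TMM factors moved the counts of member and gene pairs called over all libraries from 43742 positive and 53674 negative to 18357 and 91253, and without Y chromosome counts from 45573 and 56386 to 16734 and 100652. The cause was not tested. Under that scaling r with Ucp1 turned negative over all libraries for Klf11 (−0.0256), Ehmt1 (−0.170), Mapk14 (−0.0918) and Fabp4 (−0.0957), and without Y chromosome counts for Klf11 (−0.0362), Ehmt1 (−0.321), Thra (−0.225), Mapk14 (−0.228), Fabp4 (−0.142) and Retn (−0.0760). With the adipocyte score removed, r turned for Adrb3 (−0.0247, all libraries), Fabp4 and Retn (−0.121 and −0.285, without Y chromosome counts) and for Elovl3 and Ppargc1a (0.0166, with Y chromosome counts). Without subtracting set means, which lets the difference between the sets enter r, it turned for Eva1a (−0.119), Cideb (−0.000304), Adipoq (0.205), Krt7 (0.119), Alb (0.149), Upk3b (0.234), Upk1b (0.149) and Lrrn4 (0.144). Of 19 listed genes called negative with Ucp1 in libraries with Y chromosome counts, 12 were without the tenth of libraries with the most muscle RNA, which holds fewer libraries. Without the 5 libraries that stood apart, 6 regulators and 3 adrenergic genes were called positive with Ucp1 in libraries with Y chromosome counts. In the same libraries 3 mammary and 3 liver markers were called negative. Without Y chromosome counts, 4 muscle markers were then positive and 5 relatives negative. The 6 genes with 2 humps became 0 once set means were subtracted. The 3 genes called with mouse number became 1 with no filter, 1 with the set in the model and 1 without the tenth of libraries with the fewest counts, and library number went from 0 to 1 with DESeq2. No paired analysis was possible because each mouse gave 1 library in a single group. The beige genes Tbx1, Cited1 and Tnfrsf9 had 42, 34 and 5 libraries at 0 counts, and among the 8 genes Elovl3 had 3.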

Other observations

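The 8 genes differed in how much of the transcriptome moved with them. Without Y chromosome counts the numbers were alike: of 18379 genes tested with each, between 5391 (Prdm16) and 5996 (Ppargc1a) were called positive and between 6535 (Dio2) and 7310 (Cox8b) negative (permutation test, Benjamini-Hochberg adjusted p under 0.05). With Y chromosome counts Ppargc1a was called positive with 5922 genes and negative with 5128, Dio2 with 4062 and 4212, and Cidea with 3925 and 4113. Ucp1 was called with 1862 and 2072 there, Cox7a1 with 2329 and 2524 and Prdm16 with 2171 and 1514. The difference between the sets was not tested.

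Further relatives were compared per length of exon. Elovl3 made up 15.04% at the median (0.625% to 60.2%) of its summed level with Elovl6, an elongase of newly made palmitate, without Y chromosome counts and 5.001% (0% to 61.7%) with them. Ppargc1a made up 25.8% of its sum with Ppargc1b in the first set and 38.1% in the second, so Ppargc1b was the more abundant at the median of both. Ucp1 made up 94.9% and 16.6% of its sum with Ucp3.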
